A study of Mus musculus with 46 samples.

Results

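The miR-3473 family comprised the 7 mouse miRNAs on the array whose names begin with mmu-miR-3473 (mmu-miR-3473a, mmu-miR-3473b, mmu-miR-3473c, mmu-miR-3473d, mmu-miR-3473e, mmu-miR-3473f and mmu-miR-3473g, written below without the species prefix), out of 1881 mouse miRNAs measured. They were chosen by name, and the family was proposed because miR-3473f was high in degraded liver, so the liver values below, intact liver included, are a description and only heart and brain were tested. Heart, liver and brain were taken from male C57BL6 mice of an Il1a knock-out strain, a deletion that all samples shared, and before RNA isolation the parts of each organ were kept for 0 to 96 h, either cold at 4 °C or at room temperature (RT). The ages of the mice are not given in the sources used here. RNA integrity was given as the RIN value, which falls as the total RNA breaks down. Analysed were 7 heart, 6 liver and 8 brain arrays of 4 °C and 8 arrays of each tissue of RT, 45 in all. Each array held one organ part of a single animal, and the parts of an organ stored at a given temperature came from a single animal and lay on a single slide, and the methods describe the tissues of a temperature as taken from the same individual. Within each tissue the effects of animal, slide and temperature cannot be told apart and p-values measure only the spread between these parts.

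MicroRNAs are short RNAs that are cut from hairpin precursors and lower the output of messenger RNAs, which they recognise mainly through the seed, bases 2 to 8 of the mature sequence. Names of mouse miRNAs that share a number and differ by a letter mark likeness of sequence rather than a shared target. Stretches such as the one shared by miR-3473a, b, e and f are also known from the start of B2 elements, short repeats that occur at many places in the mouse genome and are transcribed by RNA polymerase III. Repeat annotation was not used here, and the part of repeats in the values below was not tested.

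RefSeq mature sequences (GRCm38.p6) were found for all 7 members. They are shown 5′ to 3′ with the seed in capitals, because members of one name group carried different seeds.
miR-3473a: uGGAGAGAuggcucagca
miR-3473b: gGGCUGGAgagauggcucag
miR-3473e: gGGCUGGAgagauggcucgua
miR-3473f: cAAAUAGGacuggagagaug
miR-3473g: cAAAAGUGaggcuggggaga
miR-3473c: uCUCUCCAgcccccauaauaag
miR-3473d: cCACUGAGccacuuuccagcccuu

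miR-3473b and miR-3473e shared their seed and a run of 18 bases, and no other pair shared a seed. miR-3473a, b, e and f had the 10 bases uggagagaug in common, which began at base 1 of miR-3473a, base 5 of miR-3473b and miR-3473e and base 11 of miR-3473f. In miR-3473f the run therefore filled the 3′ end and lay outside the seed. miR-3473c held the reverse complement of 8 of these bases, ucucucca, and thus read the opposite strand. miR-3473d shared 8 bases with miR-3473c and, on the opposite strand, 8 with each of miR-3473a, b and e. miR-3473g shared at most 6 bases with any member on either strand.

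The precursor of miR-3473f, with the mature sequence in capitals, is shown because it held the common run and, on its other arm, the reverse complement of it.
Mir3473f hairpin: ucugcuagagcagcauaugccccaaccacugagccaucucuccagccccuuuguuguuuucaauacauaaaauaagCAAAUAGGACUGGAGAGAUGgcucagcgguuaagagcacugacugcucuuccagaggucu

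All 7 mature sequences lay within the span of a protein-coding gene of the RefSeq table, which gives no exons, so exonic and intronic positions were not told apart. miR-3473f lay at chr1:106546536-106546555 on the minus strand, within Bcl2, and miR-3473c at chr1:191998602-191998623 on the minus strand, within Traf5. miR-3473a lay at chrX:162874920-162874937 on the minus strand, within Syap1, and miR-3473b at chr10:41670774-41670793 on the plus strand, within Ccdc162. miR-3473e lay at chr5:31667296-31667316 on the minus strand, within Rbks. miR-3473g lay at chr2:126902290-126902309 on the minus strand, within Sppl2a, and miR-3473d at chr8:111016498-111016521 on the minus strand, within Ddx19b. The 7 loci thus formed no cluster.

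The sequences also differed in how often they recurred elsewhere. Among 32851 mouse promoters of 300 bases, the 20 bases of miR-3473b were found on either strand in 32, or 0.0974%, the highest number among the 1608 array miRNAs with a RefSeq mature sequence. The 18 bases of miR-3473a were found in 9 promoters, and those of miR-3473c, d, e, f and g in 0. Of the 1608 miRNAs, 1564 had no match in any promoter, and the highest number outside the family was 11. The common run uggagagaug, searched on both strands with T for U, stood in 151 promoters, or 0.46%. Outside the family, 0 array miRNAs shared a run of 12 or more bases with a member on the same strand, while miR-7667-5p shared 12 bases with the opposite strand of miR-3473a, b and e and was detected on 3 of 45 arrays.

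The array values were log2 values after variance stabilizing normalization (VSN), which brings arrays to a common scale and evens the spread of dim and bright signals. Beside them, background-subtracted signals in scanner units are given. Levels of different members were not compared with each other, because each is read by its own probes. Between 268 and 798 of the 1881 miRNAs were detected per array by the flag of the scanner software, and the summed signal of detected miRNAs was between 153088 and 541770 units. The tissue labels held on every array: miR-122-5p, a liver miRNA, was at least 11.19 in liver and at most 7.38 elsewhere, miR-1a-3p, a muscle miRNA, at least 13.64 in heart and at most 7.84 elsewhere, while miR-124-3p, a neuronal miRNA, was never below 12.97 in brain and reached 4.61 in the other tissues. The heart array of 0 h at 4 °C stood apart with low signals and was set aside.

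miR-3473a, b and g were detected on all 45 arrays, miR-3473e on 42, miR-3473f on 41 and miR-3473c on 36. miR-3473d was detected on 1 array, that of fresh liver on the 4 °C slide, where it had 4.76 units, and did not pass the filter of 5 arrays. The other 6 members were among the 815 miRNAs analysed. The 4 arrays without detection of miR-3473f were the liver arrays of 0 h at both temperatures, the liver array of 1 h at 4 °C and the heart array of 1 h at RT, all with RIN values of at least 7.1.

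miR-3473f rose in heart and brain at RT. The arrays were taken at 0, 1, 3, 6, 12, 24, 48 and 96 h, and in this order its heart values were 2.20, 2.68, 3.82, 6.92, 5.60, 6.94, 8.21 and 8.93, as the signal went from 2.92 to 1010 units. Its brain values at these times were 3.92, 4.65, 6.24, 8.13, 7.80, 8.36, 9.09 and 10.80, as the signal went from 10.2 to 3866 units. Both series went up at 6 of 7 steps, with the exception of the step from 6 h to 12 h. The change from 0 h to 24 h was 4.74 in heart, rank 5 among the 815 miRNAs, and 4.44 in brain, rank 11, while the median change of all 815 was 0.08 and 0.68. At 24 h the RIN values were still 8.2 in heart and 7.3 in brain.

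At 4 °C miR-3473f also went up with time, and from 6 h on each value was below that of RT at the same time. In heart, from 1 h to 96 h, they were 3.38, 4.06, 4.07, 4.23, 4.57, 5.09 and 6.15. In brain they started at 3.77 at 0 h, were 3.98 at 3 h, and then took the values 4.68, 6.00, 6.57, 6.91 and 7.81 from 6 h to 96 h. Every later array was higher than the one before, over 6 steps in heart and 7 in brain, although the RIN stayed at 8.1 or above in heart and at 7.3 or above in brain.

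**Figure D1:**
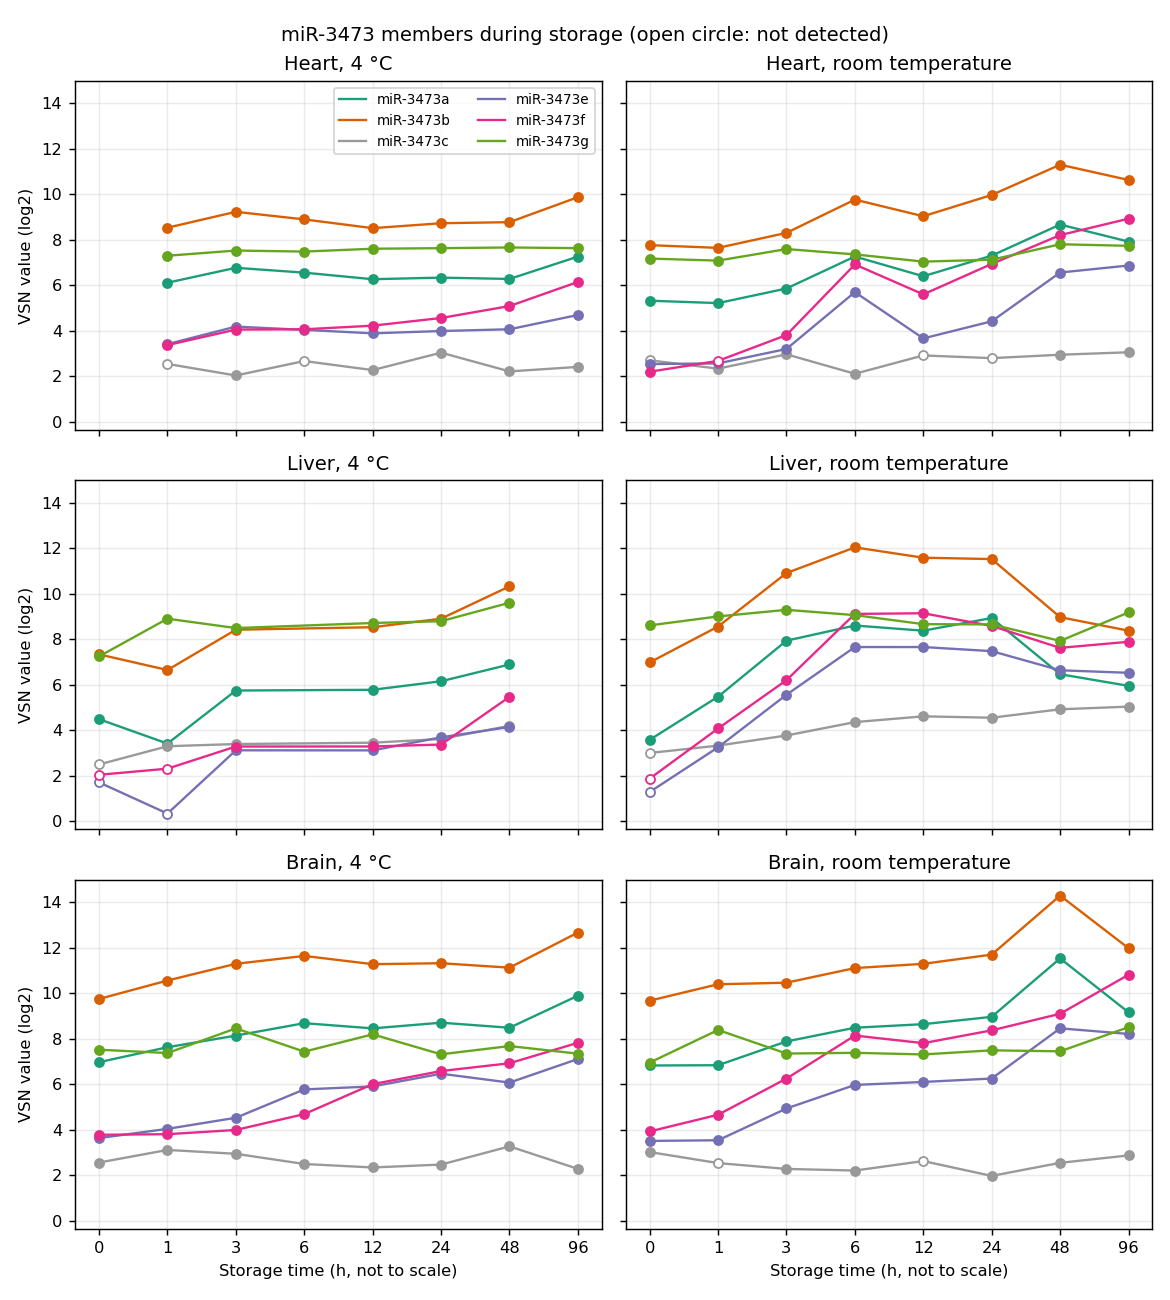
VSN values (log2) of the 6 analysed members against storage time (h, evenly spaced, not to scale) for each tissue and temperature, 1 array per point; open circles were not detected. miR-3473f climbs from 2.20 to 8.93 in heart and from 3.92 to 10.80 in brain at RT, while miR-3473a and b turn down after 48 h in these tissues.

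miR-3473b, the member with the most promoter matches, rose at RT and then turned down. At 0, 24, 48 and 96 h its heart values were 7.77, 9.97, 11.30 and 10.63. The brain values at the same times were 9.67, 11.69, 14.28 and 11.97, as the signal went from 583 units at the start to 27803 at the peak and 8684 at the end. The peak of both tissues thus lay at 48 h, 0.67 above the last array in heart and 2.31 in brain. miR-3473a, which shares 16 bases with miR-3473b, also peaked then, with values at 0, 48 and 96 h of 5.33, 8.67 and 7.92 in heart and 6.82, 11.52 and 9.15 in brain.

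miR-3473e, which shares the seed of miR-3473b, did not turn down to this extent. Its RT values at 0, 6, 24, 48 and 96 h were 2.54, 5.70, 4.42, 6.56 and 6.87 in heart. In brain they were 3.50, 5.96, 6.24, 8.45 and 8.20, although the signal went up from 486 units at 48 h to 636 units at 96 h. The heart array of 6 h at RT was higher than that of 12 h for miR-3473a, b, e and f alike.

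miR-3473c and miR-3473g, which lack the common run, spanned narrower ranges of VSN values in heart and brain. miR-3473c lay between 2.04 and 3.06 on the 15 heart arrays and between 1.96 and 3.26 on the 16 brain arrays. miR-3473g lay between 7.04 and 7.81 in heart and between 6.94 and 8.50 in brain. Its highest brain arrays were those of 96 h at RT, 3 h at 4 °C with 8.45 and 1 h at RT with 8.38, so that high values were not limited to late times. Its signal in brain at RT nevertheless went from 87.8 units at 0 h to 781 units at 96 h, as the VSN value went up by 1.56.

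The relation to RNA integrity was tested with limma across all 815 miRNAs, with the storage temperature as a block and Benjamini-Hochberg adjustment, and a miRNA was called where the adjusted p was below 0.05. In heart, 5 of the 6 members were higher at lower RIN and 0 lower, against 40.2% of all 815 miRNAs called higher. miR-3473f gained 0.79 ± 0.18 (SE, n = 15 arrays) on the log2 scale per RIN unit lost, with an adjusted p of 0.0016 by limma. The values were 0.58 ± 0.11 for miR-3473e, 0.42 ± 0.10 for miR-3473b, 0.38 ± 0.09 for miR-3473a and 0.10 ± 0.03 for miR-3473g, with adjusted p-values of 0.00022, 0.0022, 0.0023 and 0.015. miR-3473c had 0.07 ± 0.05 with an adjusted p of 0.23. The median over the 6 members was 0.40, beside 0.01 over all 815 miRNAs.

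In heart, the rise was also seen among arrays of high RIN. Within the 13 heart arrays of RIN 8.1 to 9.0, the slope of miR-3473f was 5.31 per RIN unit with an adjusted p of 0.00052 by limma, and miR-3473a, b and e were called as well. Of all 815 miRNAs, 121 were called higher on these arrays. With the storage time as a covariate, which was chosen after seeing the data, only miR-3473e of the members stayed called in heart, and miR-3473f had 0.45 with an adjusted p of 0.17. With this covariate 275 of all 815 miRNAs were called higher. The call of miR-3473g rested on the scaling, and those of miR-3473a and b ended with scaling to the 75th percentile of all mouse miRNAs. There, miR-3473a and b had adjusted p-values of 0.081 and 0.068. miR-3473g was called in the opposite direction, with -0.089 and an adjusted p of 0.0017. With the 75th percentile of miRNAs detected on all arrays, with quantile normalization and with normexp, 4 members each were called higher. Of all 815 miRNAs, 298, 289 and 290 were called higher in these 3 settings. Without scaling between arrays 6 of 6 members were called higher in heart and in brain, beside 434 and 404 of all 815 miRNAs. miR-3473c then had 0.30 and 0.34, while the median of all 815 miRNAs was 0.19 and 0.21. Without the heart array of 96 h at RT the slope of miR-3473a was 0.69 and that of miR-3473b 0.73. On the 8 heart arrays of RT alone the slope of miR-3473f was 0.77 with an adjusted p of 0.013.

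In brain, miR-3473a, b, e and f were called higher at lower RIN and 0 members lower, 4 of 6 beside 36.1% of all 815 miRNAs called higher. miR-3473f gained 1.06 ± 0.25 (SE, n = 16 arrays) per RIN unit lost, with an adjusted p of 0.0023 by limma. The values were 0.87 ± 0.20 for miR-3473e, 0.55 ± 0.17 for miR-3473b and 0.55 ± 0.18 for miR-3473a, with adjusted p-values of 0.0018, 0.010 and 0.014. miR-3473g had 0.15 ± 0.09 with an adjusted p of 0.13, and miR-3473c 0.05 ± 0.07 with 0.54. The member median was 0.55, beside -0.02 over all 815. Without the brain array of 96 h at RT the slope of miR-3473a was 1.34 and that of miR-3473b 1.32. On the 8 brain arrays of RT alone miR-3473e and f stayed called, with 0.81 and 0.97, beside 262 of all 815 miRNAs called higher. Among the 14 brain arrays with a RIN over 6, miR-3473b was the only member called, and miR-3473f had 2.27 per RIN unit with an adjusted p of 0.090. Of all 815 miRNAs, 29 were called higher on these arrays. With the storage time as a covariate 0 members were called in brain by limma, beside 55 of all 815 miRNAs called higher. Only 1 member had an unadjusted p below 0.05, so for the members RIN and time were not separated there.

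**Figure D2:**
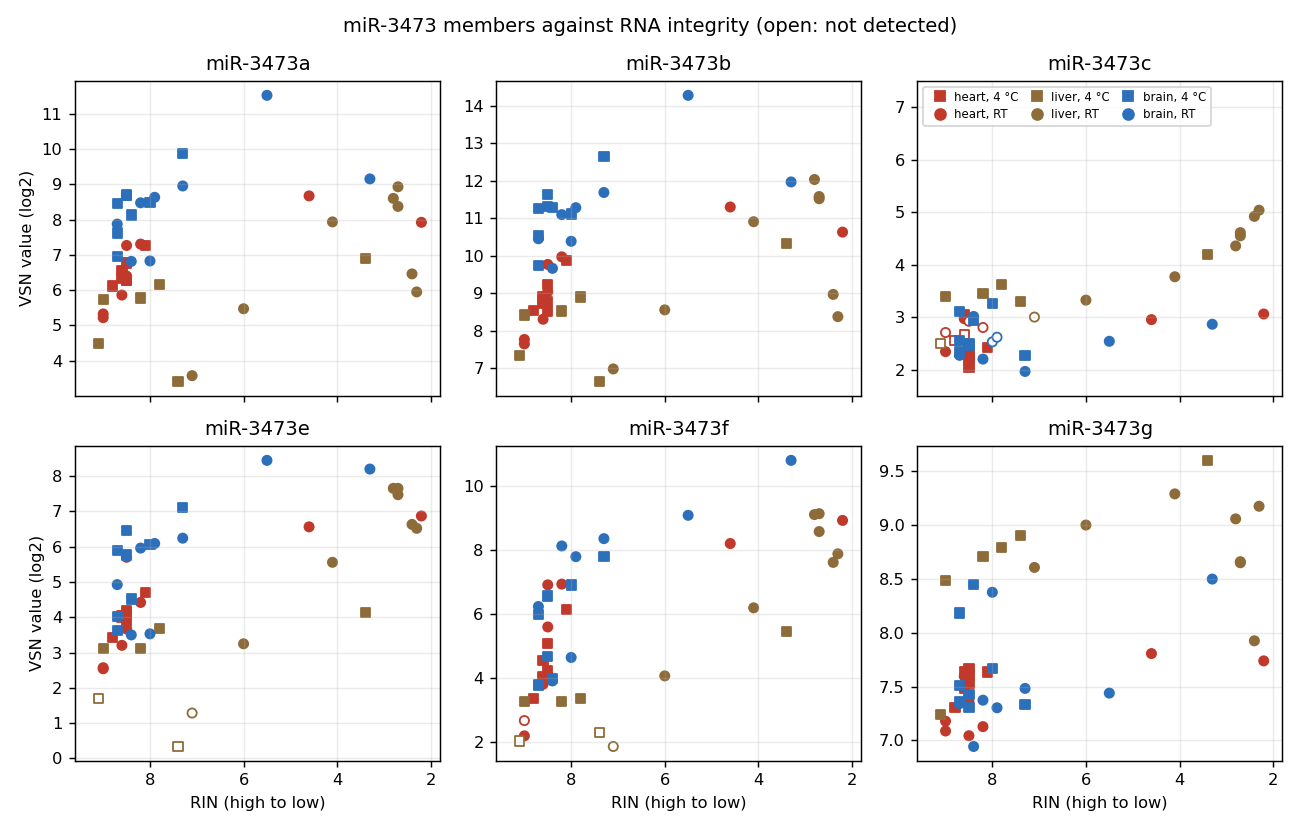
VSN values (log2) against RIN, from high to low integrity, for the 6 analysed members; colours mark tissues, squares 4 °C, circles RT, and open symbols arrays without detection. miR-3473f spans 2.20 to 6.94 on heart arrays with RIN values over 8, while miR-3473g stays between 7.04 and 7.81 over all heart arrays.

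The slopes of heart and brain were not shown to differ for any member. By the limma test of the difference, 0 of 6 members were called and 0 had an unadjusted p below 0.05, beside 3.68% of all 815 miRNAs called in either direction. For miR-3473f the brain slope was 0.27 higher with a 95% confidence interval from -0.39 to 0.93, and for miR-3473e 0.28 higher with an interval from -0.18 to 0.74. Without the brain array of 96 h at RT these differences were 0.62 and 0.80, and that of miR-3473a was 0.96 instead of 0.17, with an adjusted p of 0.059. Without the heart array of 96 h at RT they were -0.04 for miR-3473f and 0.06 for miR-3473e. With normexp background correction and quantile normalization, 3 members were called, beside 231 of all 815 miRNAs in either direction.

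Cold storage was tested on the 15 heart and brain arrays of 4 °C, with the tissue as a block. 4 of 6 members rose and 0 fell, beside 16.1% of the 815 miRNAs called higher. miR-3473f gained 0.81 ± 0.12 (SE) on the log2 scale per 24 h, with an adjusted p of 0.00063 by limma. The values of miR-3473e, a and b were 0.45 ± 0.13, 0.35 ± 0.09 and 0.35 ± 0.10, with adjusted p-values of 0.026, 0.017 and 0.020. miR-3473c had -0.04 and miR-3473g -0.03, with adjusted p-values of 0.71 and 0.81. The member median was 0.35, beside -0.02 over all 815.

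miR-3473f stayed called in each tissue alone, with 0.60 per 24 h in heart (adjusted p = 0.0044 by limma) and 0.99 in brain (adjusted p = 0.029), a split that was chosen after seeing the data. The other members were called in neither tissue alone, where 77 miRNAs in heart and 35 in brain were called in either direction. Without the brain array of 96 h, miR-3473f was the only member called, and miR-3473a, b and e had adjusted p-values of 0.20, 0.20 and 0.19. miR-3473b also lost its call without the heart array of 96 h, with an adjusted p of 0.073.

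The first 24 h at RT were tested on 12 heart and brain arrays, whose RIN values were between 7.3 and 9.0. 3 of 6 members rose and 0 fell, beside 6.63% of the 815 miRNAs called higher. miR-3473f gained 4.07 ± 0.94 (SE) per 24 h with an adjusted p of 0.020 by limma, miR-3473a 1.94 ± 0.46 with 0.022 and miR-3473b 1.91 ± 0.42 with 0.016. miR-3473e had 2.09 ± 0.73 with an adjusted p of 0.11, which was 0.014 without the heart array of 6 h. miR-3473c and miR-3473g had -0.18 and -0.14, with adjusted p-values of 0.89 and 0.94. The member median was 1.93, beside 0.15 over all 815.

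These calls rested on few arrays and on the scaling. With 4 other ways of scaling, the adjusted p of miR-3473f was between 0.064 and 0.096 at values of 3.86 to 4.49, and without the tissue block it was 0.13. miR-3473f had an adjusted p of 0.054 without the brain array of 0 h, and miR-3473b of 0.055 without the heart array of 24 h. miR-3473a had adjusted p-values of 0.054 to 0.064 without the heart array of 0 h or 1 h or the brain array of 0 h or 24 h. In heart alone and in brain alone limma called 0 members, and 0 of all analysed miRNAs were called either. By limma, 3 members in heart alone and 4 in brain alone had an unadjusted p below 0.05, beside 111 and 115 of all analysed miRNAs. The values of miR-3473f there were 4.27 and 3.87, with adjusted p-values of 0.25 and 0.14.

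**Figure D3:**
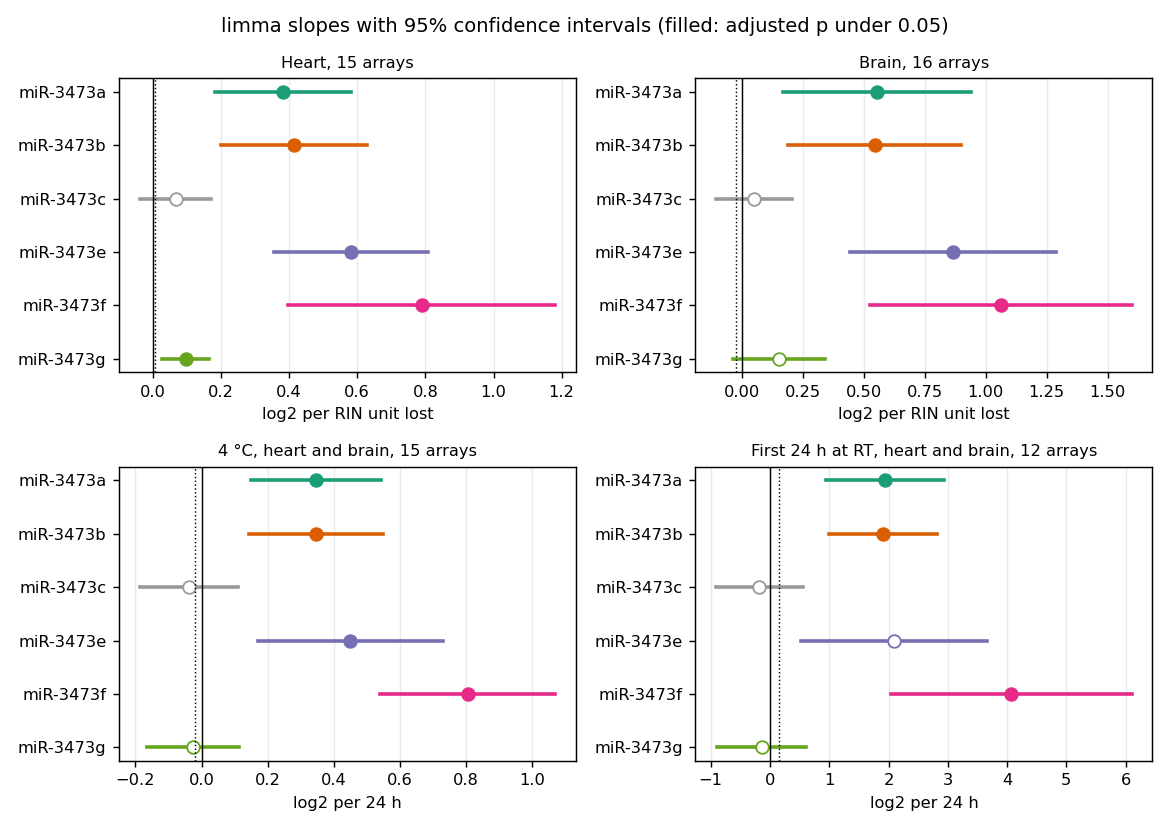
limma slopes of the 6 analysed members with 95% confidence intervals, as log2 per RIN unit lost (heart and brain) or log2 per 24 h (4 °C and the first 24 h at RT); filled points have an adjusted p under 0.05, the solid line is 0 and the dotted line the median of all 815 miRNAs. miR-3473f has the highest point estimate of the members in each panel, from 0.79 per RIN unit in heart to 4.07 per 24 h at RT, and miR-3473c is not called in any.

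In liver, where the family was picked out, the values are described without a test. The 8 arrays with RIN values of 6 or lower had 4.08 as the lowest, 7.75 as the median and 9.14 as the highest value of miR-3473f, and the 6 arrays with RIN values over 6 had 1.87, 2.80 and 3.37. All arrays of the first group lay above all of the other, which held for 25 of the 815 miRNAs (3.07%) and for miR-3473f alone among the members. The means were 7.26 ± 1.84 (SD, n = 8) and 2.69 ± 0.69 (SD, n = 6), a difference of 4.57. miR-3473f was detected on all 8 arrays of the first group and on 3 of the 6 of the other. The arrays next to the limit were those of 1 h at RT with a RIN of 6.0 and a value of 4.08, and of 0 h at RT with a RIN of 7.1 and a value of 1.87.

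The other members of liver overlapped between the groups. The difference of means was 3.90 for miR-3473e, 2.48 for miR-3473b, 2.47 for miR-3473a, 1.14 for miR-3473c and 0.46 for miR-3473g, beside a median of 0.32 over all 815 miRNAs. miR-3473g reversed to between -0.14 and -0.24 under 4 other ways of scaling. miR-3473c, near the limit of detection elsewhere, was detected on all 8 arrays of low RIN, and its signal at RT went from 3.38 units at 0 h to 79.0 units at 96 h.

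At RT, miR-3473a, b, e and f had their highest liver values between 6 h and 24 h and their highest heart and brain values at 48 h or 96 h, a difference that was not tested. Over the 8 times, miR-3473f took the values 1.87, 4.08, 6.20, 9.11, 9.14, 8.58, 7.62 and 7.89. miR-3473b peaked at 6 h with 12.04 and was 8.38 at 96 h, and miR-3473a peaked at 24 h with 8.93 and was 5.95 at 96 h. The fall of the VSN value from the peak to 96 h was 3.66 for miR-3473b and 2.98 for miR-3473a, compared with 1.25 for miR-3473f and 1.13 for miR-3473e. In scanner units miR-3473b went from 5345 at 6 h to 812 at 96 h, and miR-3473a from 887 at 24 h to 150. miR-3473f went from 840 units at 12 h to 578 at 96 h. miR-3473e had 256 units at 6 h, 323 at 24 h and 224 at 96 h. miR-3473c took another course, and its value of 5.04 at 96 h was its highest. At 4 °C, miR-3473f was between 2.04 and 3.37 until 24 h and reached 5.47 at 48 h, where the RIN was 3.4.

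Levels of the tissues were compared on the 33 arrays with RIN values over 6, 13 of heart, 6 of liver and 14 of brain. These sets differ in storage, since the liver arrays end at 24 h at 4 °C and at 0 h at RT, whereas heart and brain include arrays of up to 96 h at 4 °C and 24 h at RT. An alternative fit of all 33 arrays, chosen after seeing the data, added the temperature and storage time as a block. Its differences drew on arrays of every tissue, not only on matched pairs. In bulk tissue, fewer cells of a type and less RNA per cell cannot be told apart. Each slide held a single tissue, so differences between tissues cannot be told apart from those between slides. The order of the means for miR-3473a, b, e and f was brain, heart, liver. miR-3473f had means of 5.90 ± 1.74 (SD, n = 14) in brain, 4.59 ± 1.49 (SD, n = 13) in heart and 2.69 ± 0.69 (SD, n = 6) in liver, and the ranges of brain, 3.77 to 8.36, and of heart, 2.20 to 6.94, overlapped. miR-3473b had 11.01 ± 0.80 in brain, 8.85 ± 0.74 in heart and 7.80 ± 0.93 in liver. Its lowest brain array, 9.67, was above the highest liver array, 8.90, but not above the highest heart array, 9.97.

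Brain exceeded heart for 4 of 6 members by limma, beside 48.7% of the 815 miRNAs called higher and a median of 0.44 over all of them. The p-values measure only the spread between stored parts of the same animals. With the slide as a random block, 563 miRNAs and 4 members were called. The difference was 2.16 ± 0.30 (SE) for miR-3473b and 1.79 ± 0.32 for miR-3473a, with adjusted p-values of 7.6e-08 and 9.3e-06, and 1.39 ± 0.41 for miR-3473e with 0.0031. For miR-3473f it was 1.31 ± 0.56 with an adjusted p of 0.036, and leaving out any one of 12 of the 33 arrays ended this call. With the temperature and storage time as a block, the difference of miR-3473f was 1.46 with an adjusted p of 5.2e-07 by limma. This fit used all 33 arrays, those of liver included, and 13 pairs of brain and heart arrays matched in it. Quantile normalization, without this block, ended the calls of miR-3473e and f, with 0.55 and 0.51 and adjusted p-values of 0.31 and 0.44. miR-3473c and miR-3473g had 0.03 and 0.17, with adjusted p-values of 0.86 and 0.34, and both were lower in brain, by -0.76 and -0.41, with quantile normalization.

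The differences of liver from the other tissues are given without a test of the members, because intact liver was part of the contrast from which the family was proposed. Liver minus heart was -1.90 for miR-3473f, -1.67 for miR-3473e, -1.53 for miR-3473a, -1.05 for miR-3473b, 0.67 for miR-3473c and 1.05 for miR-3473g. The VSN values of most miRNAs were lower in liver: the median over all 815 was -0.60, and of the 56.6% called, 373 were lower and 88 higher. At the same temperature and time, with 5 pairs of arrays, the difference of miR-3473f was -0.66, and those of miR-3473e, a and b were -1.09, -1.11 and -0.61. At 0 h at RT, miR-3473f had 2.20 in heart and, not detected, 1.87 in liver. With quantile normalization the difference of miR-3473b was 0.027.

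Brain minus liver was 3.32 for miR-3473a, 3.21 for miR-3473b, 3.21 for miR-3473f, 3.06 for miR-3473e, -0.64 for miR-3473c and -0.88 for miR-3473g, beside a median of 1.11 over all 815 miRNAs, of which 73.4% were called. With 6 pairs matched by temperature and time, it was 2.98 for miR-3473a, 2.85 for miR-3473b, 2.58 for miR-3473e and 2.12 for miR-3473f. The 3 pairs of tissues share arrays.

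**Figure D4:**
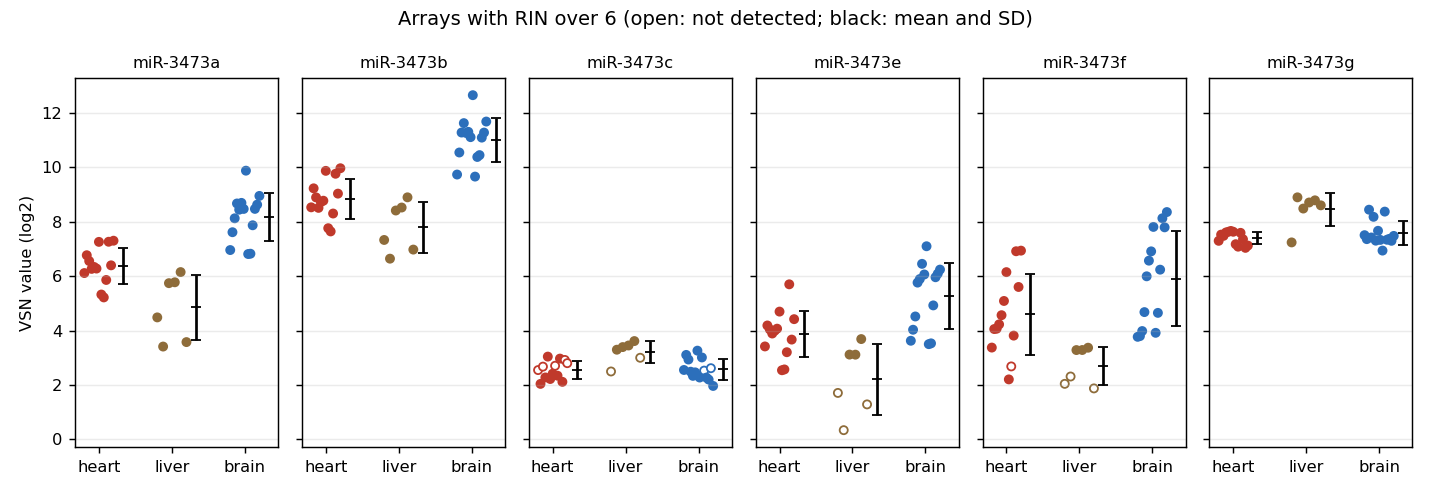
VSN values (log2) of the arrays with RIN values over 6 in heart (n = 13), liver (n = 6) and brain (n = 14), with open symbols for arrays without detection and black marks for mean ± SD. The means of miR-3473a and b are highest in brain and lowest in liver, while miR-3473g has its highest mean, 8.46, in liver.

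The members fell into sets by their values over the 45 arrays, which share tissue, slide and storage time, so the correlations are a description. Pearson's r was 0.98 between miR-3473a and miR-3473b, which share 16 bases, and 0.94 between miR-3473e and miR-3473f, which share 11. Between the pairs r was 0.77 to 0.88. After removal of each slide's mean the values were 0.98, 0.94 and 0.81 to 0.92. miR-3473b and miR-3473e, with one seed and 18 bases in common, had r = 0.85. miR-3473g had r between -0.14 and 0.08 with miR-3473a, b, e and f, and 0.19 to 0.28 within slides. miR-3473c and miR-3473g had r = 0.69, and 0.25 within slides.

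Outside the family, the miRNAs with values most like those of miR-3473f were miR-7070-5p (r = 0.95), miR-5107-5p (0.95), miR-5130 (0.92), miR-3102-5p.2-5p (0.92) and miR-6984-5p (0.91). For miR-3473e they were miR-3075-5p (0.96), miR-3102-5p.2-5p (0.95), miR-6970-5p (0.94), miR-7070-5p (0.93) and miR-681 (0.93). For miR-3473b they were miR-7653-5p (0.92), miR-7063-5p (0.91), miR-3110-3p (0.91), miR-7056-5p (0.90) and miR-3075-5p (0.89), and for miR-3473a miR-7653-5p (0.92), miR-7063-5p (0.90), miR-7056-5p (0.90), miR-3110-3p (0.89) and miR-681 (0.89). miR-3473c was most like miR-6352 (0.87), miR-290b-3p (0.86), miR-5620-3p (0.84), miR-3104-3p (0.84) and miR-195a-3p (0.82). miR-3473g was most like miR-3070-3p (0.83), miR-7050-5p (0.83), miR-878-3p (0.81), miR-101b-3p (0.80) and the hepatic miR-192-5p (0.80). Among the miRNAs named for miR-3473c and g, miR-3070-3p was detected on 5 of 45 arrays and miR-878-3p and miR-3104-3p on 7. miR-195a-3p was detected on 11 and miR-6352 on 12, so most values of these lay near background. The others named for miR-3473c and g were detected on 32 to 45 arrays. Among those named for miR-3473a, b and e, miR-7063-5p was detected on 18 arrays and miR-7056-5p on 20. miR-3075-5p was detected on 22, miR-3110-3p on 26 and miR-681 on 28, so many values of these also lay near background.

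The probes of each member were read separately to see whether a single probe carried the change. miR-3473f had 4 probes, and between 0 h and 96 h at RT their signals rose by 7.39 to 7.63 on the log2 scale in heart and by 8.43 to 8.85 in brain, before any scaling between arrays. The 2 probes of miR-3473b rose by 4.18 and 4.20 in heart and by 3.88 and 3.91 in brain. Those of miR-3473g rose as well, by 1.81 and 1.96 in heart and by 3.11 and 3.19 in brain. Over the arrays with detection and positive probe signals, the log2 signals of the probes of a member had r of at least 0.99 for miR-3473a, b, f and g. It was 0.95 for miR-3473e and 0.87 for miR-3473c. For miR-3473e this left 39 of the 42 arrays with detection. All 4 probes of miR-3473f thus showed the rise, in heart from 1.23 to 1.49 units at 0 h. Probes of a member read the same sequence, so their agreement cannot tell the miRNA from RNA fragments of like sequence. The paper proposes that such fragments bind to the array, which was not tested here.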

How the data were processed

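The authors isolated total RNA including small RNA with the miRNeasy kit, hybridised it to 1-colour Agilent SurePrint mouse miRNA arrays of release 21 and read them with Agilent Feature Extraction (10.10.1.1 per the file headers). Deposited were scanner files with background-subtracted intensity per spot, in linear units, and a table of VSN-normalized log2 values. Each array's log2 values equalled an arsinh transform of its scanner signal to within 1.1e-05 on all 46 arrays, which settles their scale and direction. The signal is the total gene signal where detected and otherwise the sum of the probe signals. Values of miRNAs that were not detected lie near background, where VSN compresses differences. Array medians of the log2 values over all 1881 miRNAs were 0.14 to 0.93.

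The 815 miRNAs detected on at least 5 of 45 arrays were fitted with limma 3.58.1 in R 4.3.3 (lmFit, eBayes) with Benjamini-Hochberg adjustment at 0.05. The scripts were tested on simulated data. Liver values of members, intact liver included, were described without a test, although a test of the tissue differences had been planned for them, because intact liver was part of the contrast that proposed the family. For liver quality, the exact Wilcoxon-Mann-Whitney test of the study was run over all 815 miRNAs for the number of calls. Members and lists were chosen with earlier results of these data known. Named miRNAs were all members, the 5 miRNAs outside the family with the highest r for each analysed member, sequence relatives sharing 12 bases, and miR-122-5p, miR-1a-3p and miR-124-3p as tissue checks. Other scalings, normexp (offset 50, on median spot and background signals, as no mean signal was in the files used here), filters, blocks, Bonferroni adjustment and leaving out each array were tried. On these arrays 0 miRNA spots were saturated. The number of arrays limits the precision.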

Additional observations from a re-analysis of the deposited data

Results flagged for a closer look

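miR-3473d gave a signal on the heart array of 0 h at 4 °C, which entered no comparison. Its total gene signal there was 31.1 units and it was called detected, while on the 13 heart arrays with RIN values over 6 its signal was 0.240 to 2.43 units and it was detected on 0 of them. The array was set aside as in the study, which removed it for low quality, and the value was not tested. In the 36 groups formed by the 6 analysed members and 6 slides, 0 had a highest or lowest array that stood apart from the others by Dixon's criterion.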

How the results depend on the processing

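Of 1776 values of members under alternatives, 1614 were counted as unchanged. Untested values among them kept their direction. Tested ones kept direction and side of the threshold, or were called in neither setting, where the sign could differ. A further 98 kept the direction but were no longer called, and 11 were newly called. Reversals numbered 17, which for tested values counts only those called in either setting. Another 36 values that involve liver, which have no test, moved by more than the spread between arrays. The causes were not tested. With scaling to the 75th percentile of miRNAs detected on all arrays, 147 miRNAs were called for the slope difference (30 as reported), 17 miRNAs (58) and 0 members (3) for the first 24 h at RT and 134 miRNAs (226) for liver quality. With scaling to the 75th percentile of all mouse miRNAs, 3 members were called for RIN in heart (5), 2 of them higher and miR-3473g lower, 2 in brain (4) and 1 for the first 24 h at RT, with 163 miRNAs for the slope difference and 91 for liver quality. With quantile normalization, 184 miRNAs were called for the slope difference, 1 member for the first 24 h at RT and 96 miRNAs for liver quality. With normexp, 231 miRNAs and 3 members were called for the slope difference. Without scaling, 103 miRNAs were called for the slope difference and 37 for the first 24 h at RT.

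In this order of the first 4 scalings, miR-3473g reversed for RIN in heart to -0.0083, -0.089, -0.011 and -0.0033 and for liver quality to -0.14, -0.15, -0.22 and -0.24. With the last 3 of them, brain against heart reversed to -0.58, -0.76 and -0.092 for miR-3473c and to -0.51, -0.41 and -0.36 for miR-3473g, and with the last 2 liver against heart reversed to 0.027 and 0.11 for miR-3473b. The median over all miRNAs of the liver difference was 0.32 as reported, 1.04 without scaling and 0.01 with quantile normalization, and that of brain against heart was 0.44 and -0.03 with quantile normalization. Calls for RIN in heart were 328 higher and 223 lower as reported, 271 and 321 with the percentile of all mouse miRNAs and 434 and 9 without scaling, and in brain 294 and 261, 211 and 361, and 404 and 7.

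Without a detection filter, 1083 miRNAs (551) were called for RIN in heart, 1010 (555) in brain, 36 for the first 24 h at RT with 1 member, 1101 (581) for brain against heart, 1251 (598) for brain against liver and 489 for liver quality. With Bonferroni adjustment, 242 miRNAs and 0 members were called for RIN in heart, 130 and 0 in brain, 9 miRNAs for the slope difference, 26 and 1 at 4 °C, 9 and 0 for the first 24 h at RT, 382 and 2 for brain against heart and 210 miRNAs for liver against heart. On arrays with RIN values over 6, 134 miRNAs were called for RIN in heart, 34 and 1 member in brain and 9 for the slope difference. With RT slides alone, 2 members were called for RIN in brain and 3 miRNAs for the slope difference. With the storage time as a covariate, chosen after seeing the data, 357 miRNAs and 1 member were called for RIN in heart, 66 and 0 in brain and 5 miRNAs for the slope difference.

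At 4 °C, 172 miRNAs and 4 members were called as reported. Without the slide block 52 were called, with the heart array of 0 h 48, in heart alone 77 and in brain alone 35, each with 1 member. For the first 24 h at RT, 16 miRNAs and 0 members were called without the slide block and 0 and 0 in heart alone and in brain alone, where limma gave 111 and 115 miRNAs an unadjusted p below 0.05 (splits chosen after seeing the data). With all 8 time points 621 miRNAs and 5 members were called, and miR-3473g reversed to 0.18. Leaving out 1 array at a time gave 337 to 589 miRNAs and 5 to 5 members for RIN in heart, 249 to 585 and 4 to 5 in brain, 2 to 39 and 0 to 0 for the slope difference, 89 to 210 and 1 to 4 at 4 °C, 31 to 93 and 1 to 4 for the first 24 h at RT, 562 to 591 and 3 to 4 for brain against heart, 399 to 478 miRNAs for liver against heart, and 570 to 618 for brain against liver. For liver quality the count was 146 without the array of 96 h at RT. The lowest RIN counts, 337 in heart and 249 in brain, were without the arrays of 96 h at RT. The labels give all samples the same replicate number, so numbers paired no samples, but arrays of a temperature and storage time could be matched between tissues. With this block, chosen after seeing the data, 605 miRNAs and 4 members were called for brain against heart, and 411 and 587 miRNAs for liver against heart and brain against liver. The liver minus heart value of miR-3473f moved from -1.90 to -0.66. Signals near background limit miR-3473c, d, e and f on the arrays where they were not detected.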

Other observations

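On the heart array of 0 h at 4 °C, which was set aside, miR-3473a had a value of 3.11 and miR-3473b of 5.42, compared with 6.12 and 8.53 on the array of 1 h. miR-3473c, e and f were not detected on it. Outside the family, 3 of the 1005 hairpins in the RefSeq table held the common run of miR-3473a, b, e and f or its reverse complement: Mir690 and Mir6413 held the run and Mir8115 the reverse complement. The hairpins of miR-3473b and miR-3473f held both, and that of miR-3473d neither.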
